A study of Zea mays with 10 samples.

Results

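The sucrose synthase gene sus1 (LOC542247), the cytosolic glyceraldehyde-3-phosphate dehydrogenase gene GAPC1 (LOC542367) and the enolase gene eno1 (LOC732811) of maize were measured by 19 of the 19200 elements of a 2-colour array. An element was counted for a gene where the platform annotation gave it exactly 1 gene, which left 7 elements for sus1, 6 for GAPC1 and 6 for eno1. These 3 genes were chosen by their ratios between weedy and control plots: 1 element of each (19132 for sus1, 13829 for GAPC1 and 10452 for eno1) stood among the 6 named elements with a positive ratio and the smallest p. The last of these 6 was eno1 element 10452, with a fitted log2 ratio of 0.45 (SE 0.10), and the next in rank was element 2155, also of GAPC1, at 0.52 (SE 0.12). The weedy against control ratios of all 19 elements are therefore a description, and no p is given for them.

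The series asked what growth beside velvetleaf, a weed with broad leaves, does to transcripts in leaves of maize grown in the field without added water or fertiliser. Leaf from 4 plants was pooled in each of 8 plots, of which 4 had been sown with velvetleaf (weedy) and 4 had been kept mostly weed-free by hand (control). Total RNA of a weedy pool and of a control pool was labelled in Cy5 and Cy3 and hybridised together on each of 10 arrays. The maize line, the age of the plants and the time of sampling were not given in the sources used here. Arrays with the weedy pool in Cy5 are called weedy arrays 1 to 5, and those with the control pool in Cy5 control arrays 1 to 5. A pool recurred on 2 to 4 arrays, so the 10 arrays are not independent and the plots are the replicates.

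Sucrose that reaches a sink tissue or cycles within a leaf cell is cleaved by sucrose synthase into UDP-glucose and fructose, or by invertases. Hexose phosphates then pass through glycolysis, where cytosolic glyceraldehyde-3-phosphate dehydrogenase forms the first high-energy phosphate of the payoff steps and enolase makes phosphoenolpyruvate, which in maize leaves is also the carbon acceptor of C4 photosynthesis, although it is formed there mainly by another enzyme. In maize seedlings several of these enzymes, among them sucrose synthase, enolase, aldolase and alcohol dehydrogenase, are known as proteins that continue to be made without oxygen.

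The deposited values were log ratios per element and array, and each array was set to a median of 0. Neither the log base nor the channel in the numerator was stated. Values were read as log2 of Cy5 over Cy3. A turned ratio has its sign reversed on the control arrays, so that it is positive where weedy exceeded control on that reading. If the values run Cy3 over Cy5, every sign is opposite, and if the authors had already turned the control arrays, the ratio is given by the other term of the fit, described further on. A ratio carries no level, so leaf marker genes could not be checked, and in pooled leaf fewer cells of a type and less RNA per cell cannot be told apart.

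Between 9965 and 17383 elements had a value on an array, and the SD of the values within an array ranged from 0.31 to 0.59. The lowest number and the largest SD were those of control array 5, which set control plot 4 in Cy5 against weedy plot 3. All 19 elements of the 3 genes passed the filter, which asked for values on 4 or more arrays per orientation. Of these, 10 had a value on all arrays and the other 9 had none on control array 5, which was missing for 38.9% of the 16201 elements tested. Of all elements tested, 0.0123% (2 in number) had an adjusted p under 0.05 in limma, and neither of them was an element of the 3 genes.

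Elements of the 3 genes leaned to positive turned ratios, unevenly between the genes. The fitted ratio was above 0 for 14 of 19 and below 0 for 5, against 53.6% above 0 over all tested elements. The median fitted ratio was 0.13 for the 19 elements and 0.01 for all elements. On 5 of 19 elements every weedy array lay above every control array (sus1 19132, GAPC1 2155, 9676 and 13829, and eno1 10452), and on none did every weedy array lie below. Of all elements tested, 2.36% showed the first pattern and 2.57% the second. Since the genes were chosen for such ratios, nothing is read from these counts.

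**Figure D1:**
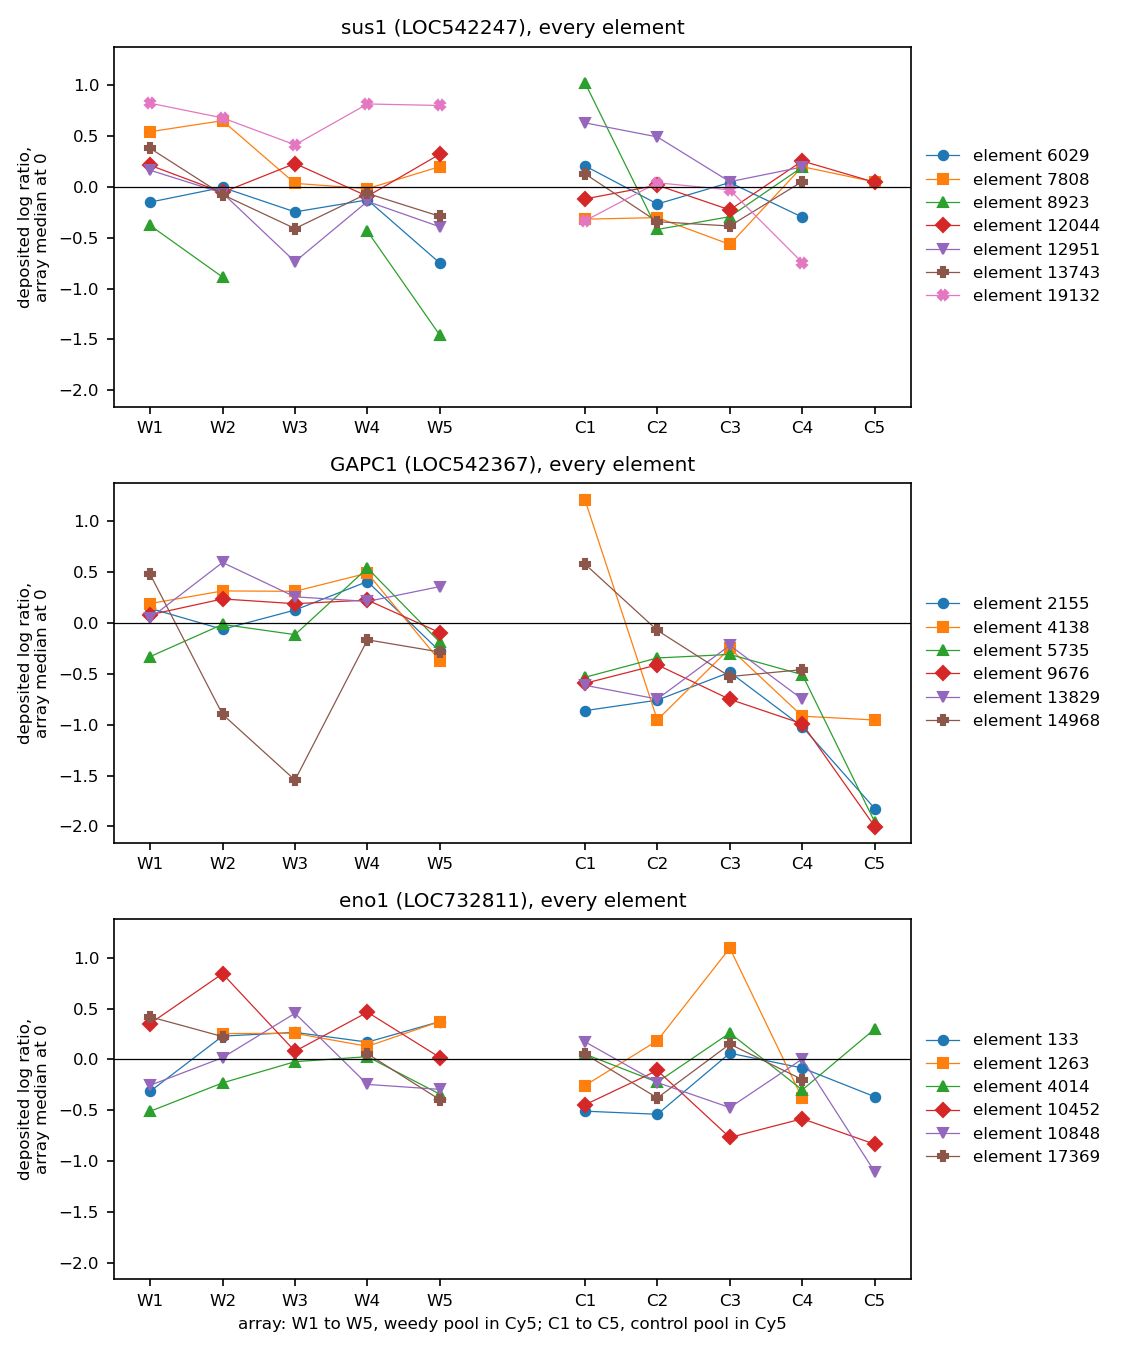
Deposited log ratio (vertical axis, array median at 0) of every element of sus1, GAPC1 and eno1 on the 5 weedy arrays (W1 to W5, weedy pool in Cy5) and the 5 control arrays (C1 to C5, control pool in Cy5). Lines only join the values of 1 element, and the order of arrays within an orientation has no meaning. Elements 2155, 5735 and 9676 of GAPC1 follow one another and reach -1.82 to -2.0 on control array 5, whereas the sus1 elements spread to both sides of 0.

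For sus1, 7 elements gave opposite answers. The element that brought the gene into the set, 19132, had log ratios of 0.82, 0.68, 0.41, 0.82 and 0.80 on weedy arrays 1 to 5. On control arrays 1 to 4 it had -0.33, 0.04, -0.03 and -0.74, and control array 5 gave no value. The weedy arrays thus lay above all control arrays, and the turned ratio was positive on 8 of 9 arrays, with a fitted value of 0.49 (SE 0.10). The elements beside it in the table showed a like pattern: the median of its 100 neighbours averaged 0.45 over the weedy arrays and -0.08 over the control arrays. Once the median of neighbouring elements was removed on each array, the fitted ratio of 19132 was 0.21. For the other 18 elements the mean turned median of the neighbours was between -0.10 and 0.10, against 0.26 for 19132.

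Element 8923 of sus1 stood at the opposite end. It had log ratios of -0.38, -0.89, -0.44 and -1.46 on weedy arrays 1, 2, 4 and 5, and 1.03, -0.42, -0.29 and 0.19 on control arrays 1 to 4. These 2 sets of values overlapped, and the fitted ratio was -0.46 (SE 0.17), with the turned ratio negative on 6 of 8 arrays. It was -0.30 without control plot 2, the pool in Cy5 on control array 1. Its neighbours in the table averaged -0.07 on the weedy and -0.07 on the control arrays. Element 12951 was also negative, at -0.29 (SE 0.11) and on 8 of 9 arrays, with values between -0.73 and 0.16 on weedy arrays and between 0.05 and 0.63 on control arrays, and it was -0.19 without weedy plot 1 and -0.18 without weedy plot 4.

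The remaining sus1 elements lay nearer to 0. Element 7808 had a fitted ratio of 0.24 (SE 0.10), positive on 7 of 10 arrays, which was 0.16 without weedy plot 2. Elements 12044 at 0.07 (SE 0.08), 13743 at 0.02 (SE 0.10) and 6029 at -0.10 (SE 0.10) were within about 1 SE of 0. With all 7 elements averaged, the sus1 value was 0.0017 (SE 0.06), with an SD over elements of 0.32. The gene value therefore describes no single element: 4 were above 0 and 3 below, from -0.46 to 0.49.

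For GAPC1, 5 of 6 elements had a fitted ratio above 0. Element 13829, by which the gene was chosen, had log ratios of 0.05, 0.60, 0.26, 0.21 and 0.36 on the weedy arrays. On control arrays 1 to 4 it had -0.61, -0.75, -0.22 and -0.75. Its turned ratio was positive on 9 of 9 arrays, with a fitted value of 0.44 (SE 0.09), and 0.667% of all tested elements were positive on every array with a value.

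Elements 2155 and 9676 had the highest fitted ratios of the set. Element 2155 had 0.15, -0.06, 0.13, 0.41 and -0.28 on weedy arrays 1 to 5 and -0.86, -0.76, -0.48, -1.02 and -1.82 on control arrays 1 to 5. Element 9676 had 0.08, 0.24, 0.19, 0.23 and -0.09 on the weedy arrays and -0.59, -0.41, -0.75, -0.99 and -2.0 on the control arrays. In both, the weedy arrays lay near 0 and the control arrays clearly below it, without overlap. The fitted ratios were 0.52 (SE 0.12) and 0.53 (SE 0.13).

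Element 5735 followed the same course with overlap, from -0.33 to 0.54 on the weedy arrays and from -1.96 to -0.31 on the control arrays, and its fitted ratio was 0.34 (SE 0.15). Element 4138 differed on 1 array: control array 1 gave 1.22, against -0.95 to -0.25 on the other control arrays, and the fitted ratio of 0.28 (SE 0.19) was 0.48 without that array and 0.03 without weedy plot 3. Element 14968 went against the rest, with -1.54 to 0.48 on the weedy and -0.53 to 0.58 on the control arrays and a fitted ratio of -0.18 (SE 0.19), which ran from -0.37 without control plot 1 to -0.01 without control plot 2. The GAPC1 value over its 6 elements was 0.36 (SE 0.13), with an SD over elements of 0.27 and 8 of 10 arrays positive.

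The GAPC1 value rested in part on control array 5, where its lowest values were. That array held log ratios of -1.82, -1.96 and -2.0 for elements 2155, 5735 and 9676, and between 0.616% and 0.939% of its 9905 tested elements lay lower still. Without that array the gene value was 0.25, and for 2155, 5735 and 9676 it was 0.42, 0.20 and 0.41. Without weedy plot 3, the pool on weedy array 2 and control arrays 4 and 5, the gene value was 0.18, and elements 5735 and 9676 were at 0.15 and 0.34. Without control plot 4 the gene value was 0.24 and element 5735 was at 0.15. Element 13829 has no value on control array 5 and was between 0.37 and 0.53 with any 1 array or plot left out.

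For eno1, 5 of 6 elements had a fitted ratio above 0, and 1 of them stood apart from the others. Element 10452 had 0.35, 0.84, 0.08, 0.46 and 0.02 on the weedy arrays and -0.45, -0.11, -0.77, -0.58 and -0.83 on the control arrays. The orientations did not overlap, the turned ratio was positive on 10 of 10 arrays, and the fitted value was 0.45 (SE 0.10). Element 133 was at 0.21 (SE 0.09), positive on 8 of 10 arrays, but weedy array 1, at -0.32, lay among the control arrays, and the ratio was 0.13 without weedy plot 1.

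Elements 10848 at 0.13 (SE 0.13), 17369 at 0.09 (SE 0.11) and 1263 at 0.05 (SE 0.15) of eno1 were close to 0 against their errors. Element 4014 was negative, at -0.12 (SE 0.09), with 7 of 10 arrays below 0. The eno1 value was 0.15 (SE 0.07), with an SD over elements of 0.19 and 7 of 10 arrays positive. It was 0.07 without weedy plot 3 and between 0.11 and 0.20 with any other plot or any 1 array left out.

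**Figure D2:**
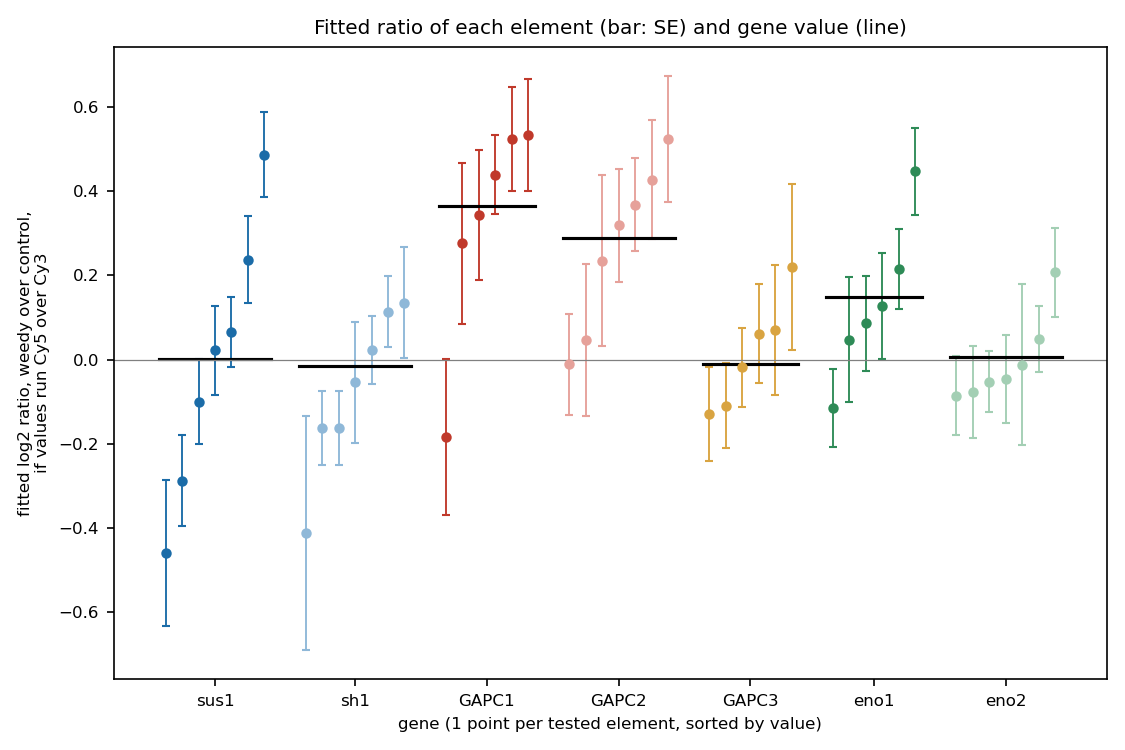
Fitted log2 ratio of weedy over control (vertical axis, read as Cy5 over Cy3) for each tested element, with its SE as the bar, and the gene value as a black line, for the 3 genes and their closest relatives on the array. The sus1 elements run from -0.46 to 0.49 around a gene value of 0.0017, while 5 of 6 GAPC1 and 6 of 7 GAPC2 elements lie above 0.

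How far elements of 1 gene agreed was also measured by Pearson's r between their log ratios over the arrays that both had. These r are descriptions over 7 to 10 arrays that share pools, and elements chosen for a difference between orientations correlate through that difference. For the 15 pairs of GAPC1 elements the median r was 0.55, for the 15 pairs of eno1 0.09 and for the 21 pairs of sus1 0.10. With the mean of each orientation taken off, which removes the difference that chose the genes, the medians were 0.14 for GAPC1, 0.06 for eno1 and 0.13 for sus1. Over all named elements with a value on every array, pairs of the same gene had a median r of 0.16 and pairs of different genes 0.02. These background r have the orientation means left in, so they do not compare with the medians after removal. Among the 80 genes with at least 5 tested elements, GAPC1 ranked 5 by its mean r of 0.40 from the highest, eno1 45 with 0.07 and sus1 53 with 0.04. By the SD of fitted ratios over elements, sus1 ranked 2, GAPC1 4 and eno1 20 from the largest. Each gene was chosen through an element of extreme fitted ratio, which itself widens this SD, so nothing is read from these ranks.

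The GAPC1 elements 2155, 5735 and 9676 formed the closest group. Their r were 0.89 between 2155 and 5735, 0.95 between 2155 and 9676, and 0.90 between 5735 and 9676, and 0.80, 0.90 and 0.71 without control array 5. With orientation means taken off, the r were 0.90, 0.86 and 0.89. They were 0.71, 0.59 and 0.58 when control array 5 was then left out. The means taken off still included that array, so its part in these r was not fully removed. Element 13829 had r of 0.83, 0.65 and 0.84 with these elements, but 0.09, 0.14 and -0.0020 once the orientation means were removed. Little of its likeness to them was thus seen among arrays of 1 orientation, which was not tested. These r rest on the 9 arrays of 13829, while the means of the other elements included control array 5. Element 14968 had r between -0.44 and 0.19 with the other GAPC1 elements.

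In sus1, elements 8923, 12951 and 6029, all with negative fitted ratios, correlated at 0.83, 0.69 and 0.55. Element 19132 had r of -0.73 with 8923 and -0.54 with 12951, and its highest r with another sus1 element was 0.49, with 7808. These r include the difference between orientations, by whose sign the elements are set apart here, so they follow from it in part. Named elements of any gene, 1246 to 1446 of them, were also ranked by their r with each element. The best partner of the same gene came at rank 3 for GAPC1 2155 and 9676, and at 11, 30, 111 and 488 for 5735, 13829, 4138 and 14968. It came between 32 and 280 for the 7 sus1 elements, with 19132 at 280, and between 167 and 450 for the 6 eno1 elements. The ranks rest on r with the orientation means left in.

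**Figure D3:**
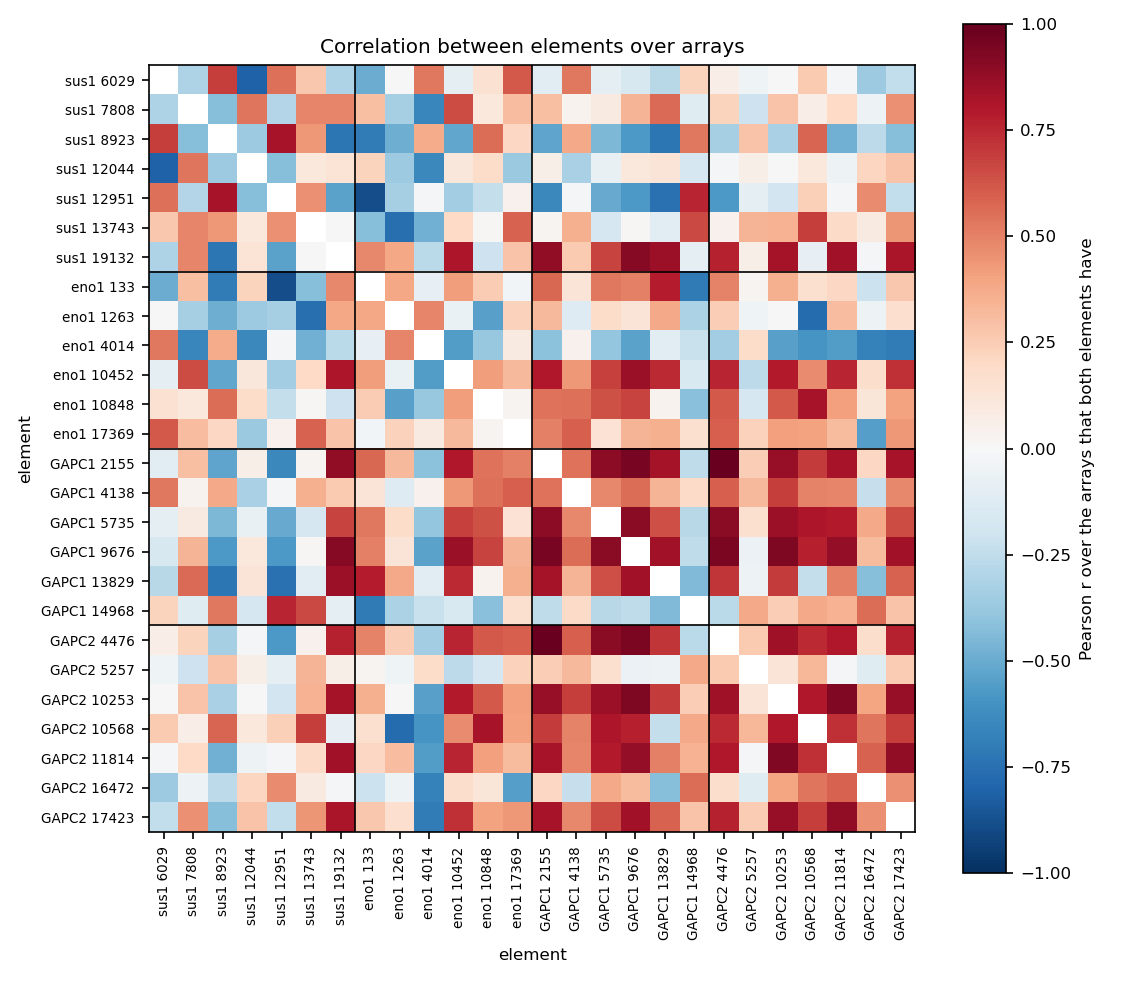
Pearson r over arrays (colour, red for positive and blue for negative) between every 2 elements of sus1, eno1, GAPC1 and GAPC2, with black lines between genes. Red fills most of the GAPC1 and GAPC2 blocks and the field between them, with most of the blue cells there in GAPC1 13829 and 14968 and GAPC2 5257 and 16472, while the sus1 and eno1 blocks mix both colours.

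**Figure D4:**
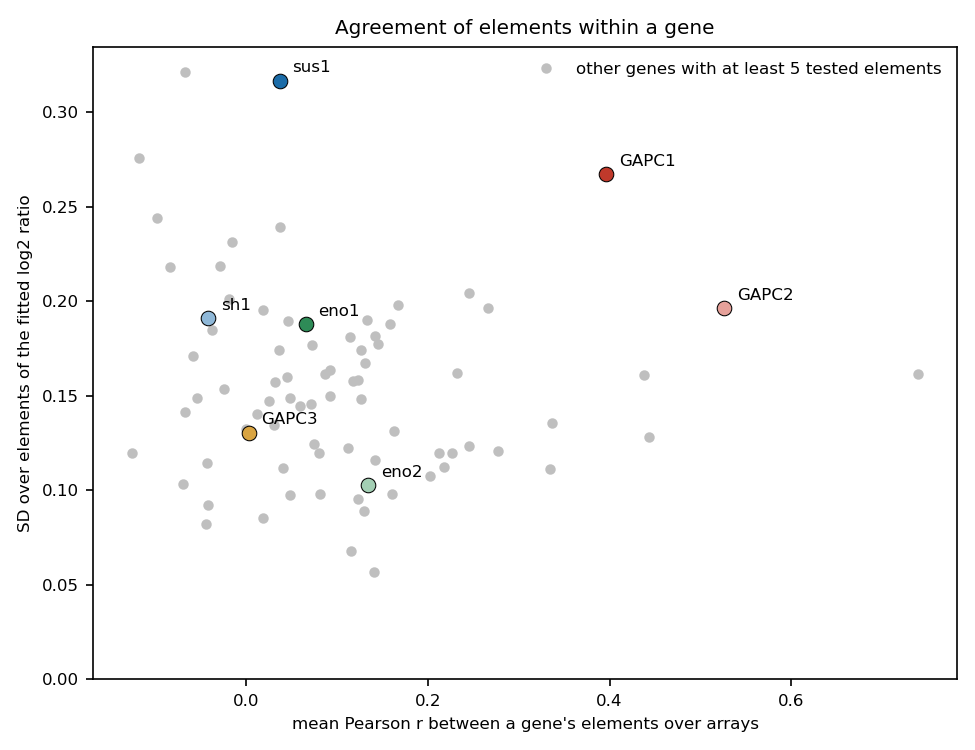
Mean Pearson r between the elements of a gene (horizontal axis) against the SD over its elements of the fitted log2 ratio (vertical axis) for the 80 genes with at least 5 tested elements. GAPC1 combines a mean r of 0.40 with a large SD of 0.27, and sus1 has an SD of 0.32 at a mean r of 0.04.

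Relatives of the 3 genes on the array were described in the same way. GAPC2 (LOC542718), another cytosolic glyceraldehyde-3-phosphate dehydrogenase gene, had a value of 0.29 (SE 0.13) over 7 tested elements, 6 of them above 0. It was 0.17 without control array 5, 0.17 without weedy plot 3 and 0.16 without control plot 4. GAPC3 (LOC542333), a further member of that family, was at -0.01 (SE 0.08) with 3 of 6 elements above 0. Enolase eno2 (LOC542316) was at 0.01 (SE 0.07) with 2 of 7 tested elements above 0, and sh1 (LOC542365), the sucrose synthase known from the shrunken kernel mutant, at -0.02 (SE 0.09) with 3 of 7. Differences between relatives were not tested.

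Between GAPC1 and GAPC2, 36 of 42 pairs of elements had r above 0, with a median of 0.53, and 0.36 without control array 5. GAPC1 element 2155 and GAPC2 element 4476 correlated at 0.98, at 0.97 without control array 5, and at 0.98 with orientation means removed. Element 4476 had a fitted ratio of 0.52 (SE 0.15) and a value of -2.16 on control array 5. The median r of GAPC1 with GAPC3 elements was -0.04 over 36 pairs, and with eno1 elements 0.33 over 36, or 0.19 without control array 5 and 0.17 with orientation means removed. No sequence of an element was used here, and whether elements of these related genes capture transcripts of one another was not tested.

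By gene value over all 10 arrays, the gene most like GAPC1 among 393 others was GAPC2 (r = 0.954), followed by LOC542476, whose synonyms include apx2, an ascorbate peroxidase that removes hydrogen peroxide (r = 0.947), and LOC732776, whose synonyms include GalDH (r = 0.935). Without control array 5 these r were 0.841, 0.844 and 0.783, with apx2 above GAPC2. The genes most like eno1 were LOC100037748 (elfa2) and LOC542581 (EF1A), both translation elongation factors, at r = 0.90 and 0.87, with the tonoplast water channel LOC541675 (TIP1-1) between them at 0.89. Without that array the r were 0.81 for elfa2, 0.90 for EF1A and 0.80 for TIP1-1, which puts EF1A ahead of elfa2 and TIP1-1. The 393 genes were not ranked again without control array 5. All these r include the difference between orientations that chose GAPC1 and eno1, so genes with a like difference correlate through it. By the rule that chose them, the element of smallest p, 6037, belongs to elfa2. The genes most like sus1 were LOC542269 (prh1), a protein phosphatase, LOC542017 (rop6), a small GTPase, and LOC541855 (igl1), which releases indole, at 0.96, 0.87 and 0.85, but the sus1 value joins elements that disagree and on control array 5 comes from 2 of them.

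The common term of the fit, the mean of both orientations, was not used to choose the genes. On the reading of Cy5 over Cy3 it is the dye effect, and if the authors had already turned the arrays it is the ratio of weedy to control. No element of the 3 genes passed for this term (limma with Benjamini-Hochberg adjustment, 0 of 19 and 0% of all elements tested), and the lowest adjusted p, 0.346, was that of GAPC1 element 2155 at -0.46 (SE 0.11). At an unadjusted p under 0.05 there were 4 of 19 elements, against 9.49% of all tested elements. These were GAPC1 2155, 9676 at -0.41 (SE 0.12) and 5735 at -0.37 (SE 0.14), and sus1 19132 at 0.22 (SE 0.09).

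On the reading of values already turned, the gene values were thus -0.34 for GAPC1, -0.066 for eno1 and -0.02 for sus1, and 5 of 19 elements were positive. With all arrays, GAPC1 had a size above 0.3 on both readings with opposite signs, its weedy arrays lying near 0 and its control arrays below it. Both sizes include control array 5, where the GAPC1 value was -1.68, against -0.77 to -0.13 on the other control arrays. Elements 13829 and 14968 have no value on control array 5, so the GAPC1 value there leaves them out. Without control array 5 the orientation term of GAPC1 was 0.25. The common term without it is not given here, so the size above 0.3 on both readings holds only with all arrays. Elements 19132, 7808 and 12044 of sus1 kept a positive sign and 8923 and 6029 a negative sign on both.

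**Figure D5:**
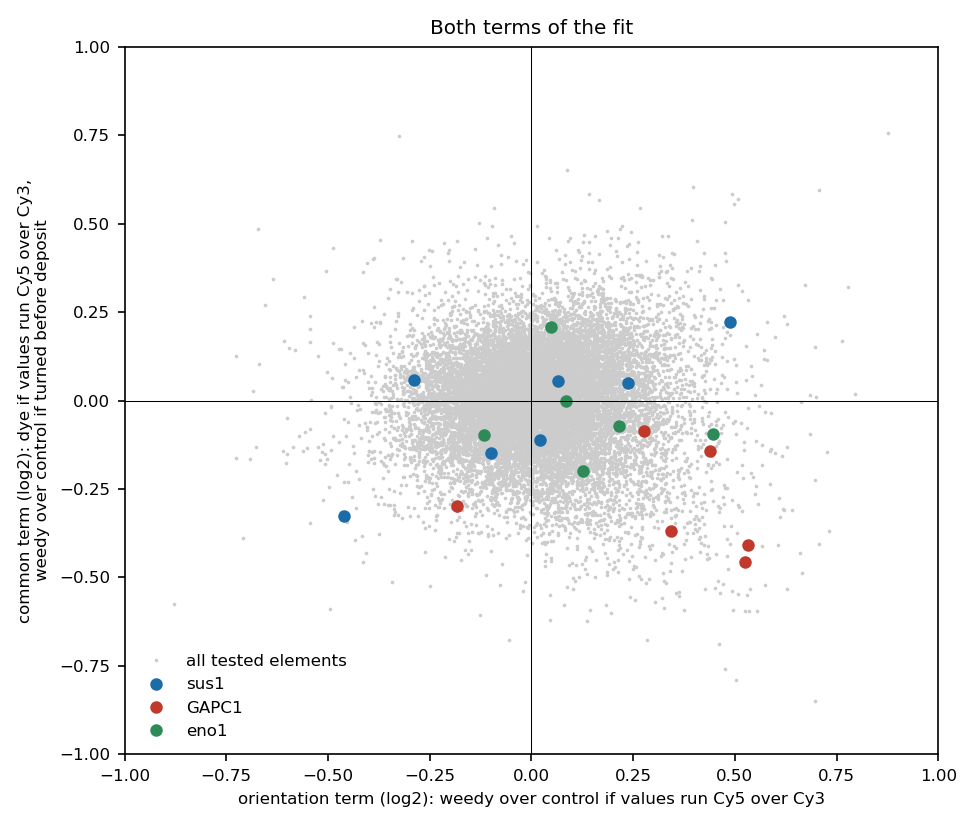
Orientation term (horizontal axis) against common term (vertical axis) of the fit, both in log2, for all tested elements (grey) and the elements of sus1, GAPC1 and eno1 (colours). GAPC1 elements 2155, 5735 and 9676 lie at the lower right, with 0.34 to 0.53 on the first and -0.46 to -0.37 on the second, and 3 grey points fall outside the axes.

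Other genes of sucrose use and glycolysis were counted from lists of symbols. None of 540 genes tested, 0% of them, passed in limma, and 64 had an unadjusted p under 0.05. Of 8 glycolytic genes, 7 had a value above 0 and 1 below, with a median of 0.12, against 57.2% above 0 and a median of 0.02 over all 540, and 0 of 8 passed. GAPC1 and eno1 are themselves on that list. Apart from them and GAPC2, the gene of smallest p was the phosphofructokinase pfk1 (LOC541911), which commits hexose phosphate to glycolysis, at 0.16 (SE 0.09) from 1 element. Among maize genes of proteins made without oxygen, 4 of 8 were above 0 and 4 below, with a median of -0.0041 and none past the threshold. Both eno1 and sus1, chosen by this ratio, are on that list and above 0. There, aldolase ald1 (LOC542261), which splits fructose bisphosphate, was at 0.08 (SE 0.07). Phosphohexose isomerase phi1 (LOC542313), which converts glucose and fructose phosphates into one another, was at 0.06 (SE 0.06). Alcohol dehydrogenase adh1 (LOC542363), the last enzyme of ethanol fermentation, was at -0.08 (SE 0.08). The list of sucrose cleavage and synthesis held only sus1 and sh1 on this array.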

How the data were processed

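Leaf RNA pools of 4 weedy and 4 control plots were compared on 10 arrays of 2 colours. The authors deposited 1 log2 ratio (base assumed) per element and array; the sources used here give no numerator, log base, normalization, scanner or filters, and the depth behind a spot is unknown, so the number of arrays limits the precision. Each array was centred on its median. Elements with values on 4 or more arrays per orientation were fitted by generalised least squares with an orientation term, a common term and the 8 plots as a random effect (1 ratio of plot to array variance, 0.0347, by restricted likelihood), with moderated variances (limma 3.58.1, R 4.3.3). Benjamini-Hochberg adjustment ran over 16201 elements, or over 540 genes (means of elements); summaries used Python 3.11.15. The symbol on 230 elements was left out of gene results. The fit was also run on simulated data of this design with a larger ratio of plot to array variance, and nothing here rests on the outcome.

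Genes were named through the platform annotation (1 gene for 1800 elements, several for 23) and, by gene identifier, through RefSeq synonyms (Zm-B73-REFERENCE-NAM-5.0) for 562 of 583 genes. The members and lists were chosen with earlier results of these data known. Named were every element of the 3 genes, up to 4 genes of smallest p per list, the 3 genes of highest r with each gene, and relatives. Alternatives were array weights, scaling, no centring, plots ignored or reduced to 1 value each, the common term dropped, blocks by plot number, other filters, medians over elements, the other reading, and each array and plot left out. The labels do not say that equal plot numbers mark a shared block.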

Additional observations from a re-analysis of the deposited data

Results flagged for a closer look

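Each element of the 3 genes was checked within each orientation for an array far from the others, in 38 groups of 4 or 5 values, and chance gives about 1 in 20 groups. In 1 group an array stood apart: GAPC1 element 5735 was at -1.96 on control array 5, against -0.53 to -0.31 on the other control arrays. Elements 2155 and 9676 of GAPC1 were lowest on the same array, at -1.82 and -2.0, without being set apart by the same measure. Control array 5 lacked a value for 9235 elements and had the largest SD of all arrays, 0.59, and the part of this in the GAPC1 values was not tested. Without that array the fitted ratio of 5735 was 0.20.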

How the results depend on the processing

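After seeing the data, 2 settings were added: neighbouring medians removed, and both arrays of control plot 4 in Cy5 left out. Read as already turned, the values were -0.34 for GAPC1 and -0.066 for eno1, and the count of 14 positive elements was 5; it was 9 of the 10 elements with a value on all 10 arrays, where fewer elements were tested, and 12 to 14 under every other setting. The 2 elements past the threshold over the whole table became 1 with scaling, 0 on the other reading, 8 with array weights, 1 without both arrays of control plot 4 in Cy5, 1 with neighbouring medians removed, and 0 to 4 with an array or plot left out. The cause was not tested. With plots reduced to 1 value each, the value was 0.25 for GAPC1 and 0.0020 for sus1. With a replicate block by plot number, a pairing the labels do not state, the values were 0.31 for GAPC1, 0.15 for eno1 and -0.0035 for sus1, and no call changed. The sus1 value lay between -0.06 and 0.15 under all alternatives, the latter from the 2 elements complete on all arrays. No element of the 3 genes passed for the common term under any alternative that fitted it.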

Other observations

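Genes next to glycolysis in carbon use lay close to 0 or pointed to both sides. Of 8 starch synthesis genes tested, 3 were above 0 and 5 below, with a median of -0.03, and none passed in limma. The starch synthase zSSIIa (LOC542481) was at -0.12 (SE 0.08), the branching enzyme ae1 (LOC542238) at -0.16 (SE 0.13) from 1 element, the granule-bound starch synthase wx1 (LOC541854) at -0.07 (SE 0.10), and bt2 (LOC541902), a subunit of the enzyme that makes ADP-glucose, at 0.17 (SE 0.12) from 1 element. Of 3 genes tested from the list drawn up for fermentation, 1 was above 0 and 2 below. The pyruvate decarboxylase pdc1 (LOC542376) was at -0.01 (SE 0.15). The gene above 0 was fdh1 (LOC542459), at 0.01 (SE 0.12), and whether it acts in fermentation was not checked.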
